A study of Homo sapiens with 10 samples.

Results

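The Smad3 binding sites of H441 lung adenocarcinoma cells that were called with a control siRNA and no longer called after TTF-1 depletion are described here. They are the 1718 regions that the authors deposited as siControl Smad3 peaks without a siTTF-1 Smad3 peak, so they were selected on the calls of the 2 Smad3 libraries. An overlap of at least 1 bp between the 2 full lists gave the same 1718 peaks. They were 19.2% (exact binomial 95% interval 18.4 to 20.05) of the 8941 siControl Smad3 peaks and are named lost, and the other 7223 are named kept. Of the 79601 peaks in the 7 called lists of the series, 8941 form the siControl Smad3 list and 14145 the siTTF-1 Smad3 list.

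TGF-β signals reach the nucleus through Smad3 and its partner Smad4. Smad proteins bind DNA weakly by themselves, and the sites they occupy in a given cell type are known to depend on partner factors that bind DNA there. TTF-1 (NKX2-1) is a homeodomain factor that specifies lung epithelium and drives surfactant genes, and it serves as a marker of lung adenocarcinoma.

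H441 is a lung adenocarcinoma line that expresses TTF-1, and A549 is a lung adenocarcinoma line without it, per the labels. Chromatin immunoprecipitation with sequencing (ChIP-seq) mapped Smad3 in H441 cells given a control siRNA (siControl) or an siRNA against TTF-1 (siTTF-1), TTF-1 in H441 cells at 0 h and 1.5 h, Smad4 in siControl and siTTF-1 H441 cells, and Smad3 in A549 cells. The treatment described for all of them is TGF-β3 at 1 ng/ml for 1.5 h, although the title of one TTF-1 library says 0 h. Each of these 7 groups had 1 library, and 3 input libraries served peak calling. No condition can therefore be set against replicate spread, and no p-value is given. TTF-1 was not mapped after siTTF-1, so how much TTF-1 was left at the lost sites was not measured.

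The lists give each peak's position on hg18 (counted from 1 here), its width and a number from 1 to the length of the list. The labels do not say what the number ranks. Low numbers went with wide peaks: Spearman's rho between number and width, across peaks as a description, was -0.46 in the siControl Smad3 list and -0.55 in the TTF-1 1.5 h list. Lists were split into 5 equal strata by this number, so that stratum 1 holds the lowest numbers. Depth is unknown from peak lists. The false discovery rate limit was 1% for the Smad3 and TTF-1 lists of H441, 5% for A549 and 10% for Smad4.

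Lost and kept peaks differed in number and width in the siControl library, which the choice of members used, so these values only describe them. Lost peaks had a median width of 499 bp (199 to 2149) and kept peaks of 649 bp (199 to 6699). The median Smad3 number was 6445.5 for lost and 3921 for kept peaks. Stratum 1 of the siControl list lost 72 of 1789 peaks (4.0%), and stratum 5 lost 649 of 1788 (36.3%). Around the 1 bp rule, the nearest miss was 1 base, at 3 lost peaks on chromosomes 8 (80518501 to 80518849), 1 (95100851 to 95102049) and 11 (122520851 to 122521099), and 9 lost peaks lay within 100 bp of a siTTF-1 peak. On the other side, the smallest overlap of a kept peak was 149 bp, at chromosome 1 (151191151 to 151191399), and no other kept peak overlapped by less than 199 bp. The median distance from a lost peak to the nearest siTTF-1 Smad3 peak was 24776 bp, and 88 lost peaks (5.1%) had one within 500 bp.

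The lost peak with the lowest Smad3 number, 37, lay on chromosome 1 at 58867101 to 58868049. It sat under number 3 of the TTF-1 0 h list (58867051 to 58868149) and number 10 of the TTF-1 1.5 h list (58866801 to 58868199), and the nearest siTTF-1 Smad3 peak was 10001 bp away. A second lost peak of the same neighbourhood, number 258 at 59002451 to 59003249, lay under TTF-1 0 h number 49. Peak 455 on chromosome 2 (204828101 to 204829399) lay under TTF-1 0 h number 76, and peak 254 on chromosome 15 (38523301 to 38523899) under number 74. Between peak 254 and the lost Smad3 peak next to it lay 151 bp. On chromosome 12 there were 3 such peaks: 472 (76033951 to 76035749), 501 (12317051 to 12317749) and 556 (57576251 to 57576949), under TTF-1 0 h numbers 25, 153 and 100. Peak 472 was 1799 bp wide, and its TTF-1 peaks were 1799 bp wide at 0 h and 1849 bp at 1.5 h. The remaining 3 of the first 10 were 179 (132909001 to 132910649) and 466 (37836501 to 37837149) on chromosome 8 and 496 (14117851 to 14118649) on chromosome 5. Peaks 466 and 496 stood later in the TTF-1 0 h list, at numbers 1852 and 4156. TTF-1 was called at all 10, at 0 h and at 1.5 h. All 10 belong to stratum 1 of the siControl list, where kept peaks had TTF-1 at 96.9% (0 h) and 95.7% (1.5 h). TTF-1 at all 10 therefore does not set them apart from kept peaks of that stratum. A Smad4 siTTF-1 or A549 Smad3 peak was called at none of the 10. Among kept peaks of stratum 1 the shares were 23.01% for Smad4 siTTF-1 and 24.2% for A549 Smad3.

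**Figure D1:**
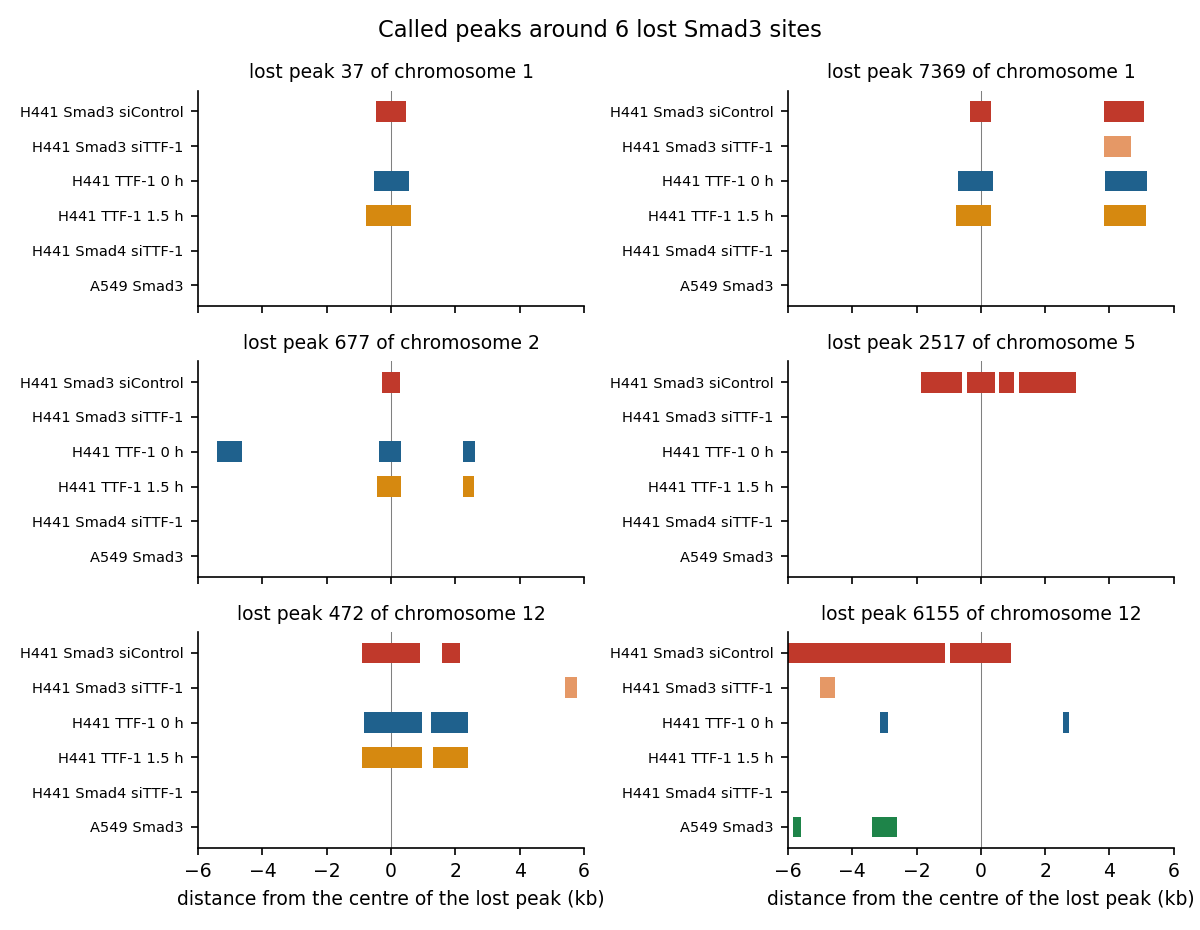
Called peaks of 6 lists within 6 kb of 6 lost Smad3 sites, each drawn to scale as distance in kb from the centre of the lost peak, with 1 row per list. In 4 panels the lost peak lies under TTF-1 peaks of both times; lost peak 2517 of chromosome 5 belongs to a block of 4 lost peaks with no other peak in the window, and lost peak 6155 of chromosome 12 borders a wide kept peak that is cut off at the left edge.

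TTF-1 was present at most lost sites at both times. TTF-1 1.5 h peaks overlapped 1520 of the 1718 lost peaks (88.5%, 86.9 to 89.9), against 80.7% (79.8 to 81.6) of the kept peaks and 82.2% of all siControl Smad3 peaks. TTF-1 0 h peaks overlapped 1587 lost peaks (92.4%, 91.0 to 93.6), against 86.6% (85.7 to 87.3) of kept peaks and 87.7% of all. Both times were present at 1506 lost peaks (87.7%, 86.0 to 89.2), against 78.6% of kept peaks and 80.3% of all. Only the 0 h list was present at 81 lost peaks, only the 1.5 h list at 14 and neither at 117 (6.8%, 5.7 to 8.1). Read by TTF-1 state, the lost share was 21.0% (20.03 to 21.9) of the 7182 Smad3 peaks with TTF-1 at both times. It was 12.3% (9.9 to 15.1) of the 657 peaks with TTF-1 at 0 h only, 8.3% (4.6 to 13.6) of the 168 peaks at 1.5 h only and 12.5% (10.5 to 14.8) of the 934 peaks without TTF-1. The 3 latter intervals overlap one another.

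The excess of TTF-1 at lost over kept peaks was 7.8 percentage points (Newcombe 95% interval 5.9 to 9.5) at 1.5 h. Its direction depended on how the loss and the TTF-1 overlap were called together. It was -2.3 points when centres within 200 bp defined both. With the siTTF-1 and TTF-1 lists shortened to their 8941 widest peaks it was -9.0 points, and with both shortened to their first 8941 peaks by number 11.3 points. Within strata of the Smad3 number it was 16.3 points.

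**Figure D2:**
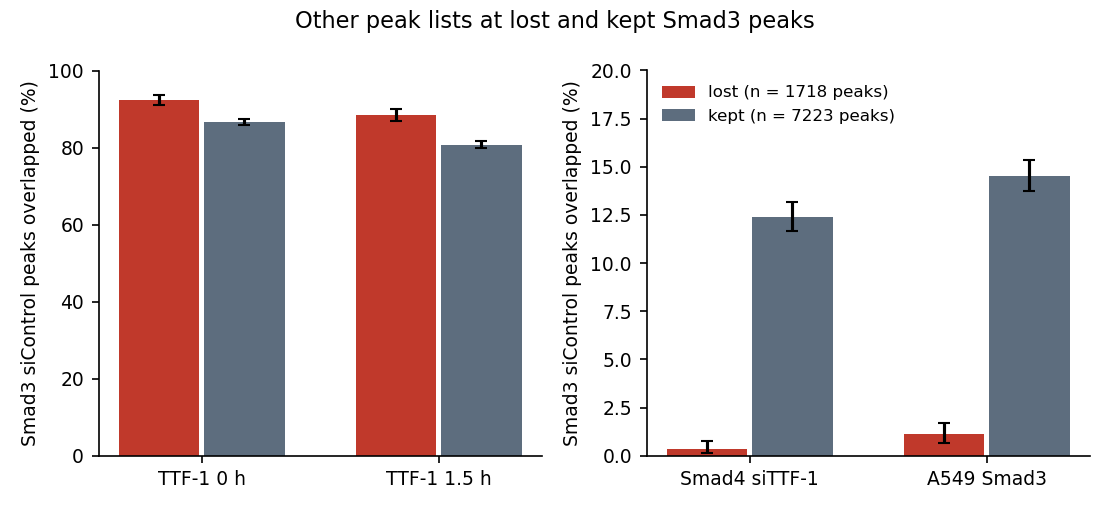
Percent of lost (n = 1718) and kept (n = 7223) siControl Smad3 peaks that overlap a peak of 4 other lists by at least 1 bp; bars show the share and error bars the exact 95% interval, on separate axes for TTF-1 and for the other Smad lists. TTF-1 0 h peaks lie at 92.4% of lost and 86.6% of kept peaks, while A549 Smad3 peaks lie at 1.1% and 14.5%.

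The lost share of Smad3 peaks was highest at the head of the TTF-1 lists, whose peak numbers the choice of members did not use. Most of the 1718 lost peaks lay elsewhere, since 277 of them were at the first 1000 TTF-1 0 h peaks. All of the first 10 TTF-1 0 h peaks had a siControl Smad3 peak, and 7 of these 10 Smad3 peaks were lost (70.0%, 34.8 to 93.3), against 19.2% of all siControl peaks. Of the first 10 TTF-1 1.5 h peaks, 8 had a siControl Smad3 peak, and 6 of these 8 Smad3 peaks were lost (75%, 34.9 to 96.8). TTF-1 0 h number 1 lay on chromosome 2 at 216271401 to 216272099, over lost Smad3 peak 677 (216271501 to 216272049). Number 2 covered lost peak 859 on chromosome 10 (8418651 to 8419399), number 3 covered lost peak 37 described above, and number 4 covered lost peak 7369 on chromosome 1 (94013401 to 94014049). Numbers 5, 7 and 10 covered lost peaks 2533 on chromosome 1 (20087351 to 20087699), 4646 on chromosome 3 (109484601 to 109485199) and 3097 on chromosome 1 (44674751 to 44675149). The Smad3 peaks under numbers 6, 8 and 9 were kept and stood at numbers 4, 231 and 75 of the siControl list. Of the 7 lost peaks, 6 had higher numbers than all 3 kept ones, and peak 37 was the exception. In the siTTF-1 list they stood at numbers 47, 2339 and 1356.

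Farther down the TTF-1 lists the lost share fell. Among the Smad3 peaks at the first 100 TTF-1 0 h peaks 48 of 98 were lost (49%, 38.7 to 59.3), and among those at the first 1000 it was 277 of 796 (34.8%, 31.5 to 38.2). With the TTF-1 1.5 h list the same shares were 45 of 96 (46.9%, 36.6 to 57.3) and 270 of 827 (32.6%, 29.5 to 35.96). Over the whole 1.5 h list, stratum 1 had 798 lost of 2881 Smad3 peaks (27.7%, 26.1 to 29.4) and stratum 2 had 358 of 1806 (19.8%, 18.0 to 21.7). Stratum 3 had 15.6% (13.7 to 17.8), stratum 4 had 11.9% (9.7 to 14.3) and stratum 5 had 67 of 565 (11.9%, 9.3 to 14.8). The intervals of the last 2 strata overlap that of Smad3 peaks with no TTF-1 (12.5%, 10.5 to 14.8). The difference between strata 1 and 5 was 15.8 points (Newcombe 95% interval 12.5 to 18.8). It was 13.5 points (9.3 to 17.4) when the siTTF-1 Smad3 list was shortened to its first 8941 peaks, and 15.6 points (12.3 to 18.5) when only peaks with no siTTF-1 peak within 500 bp counted as lost. Ordering the TTF-1 peaks by width in place of the number gave 10.5 points (7.2 to 13.4).

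**Figure D3:**
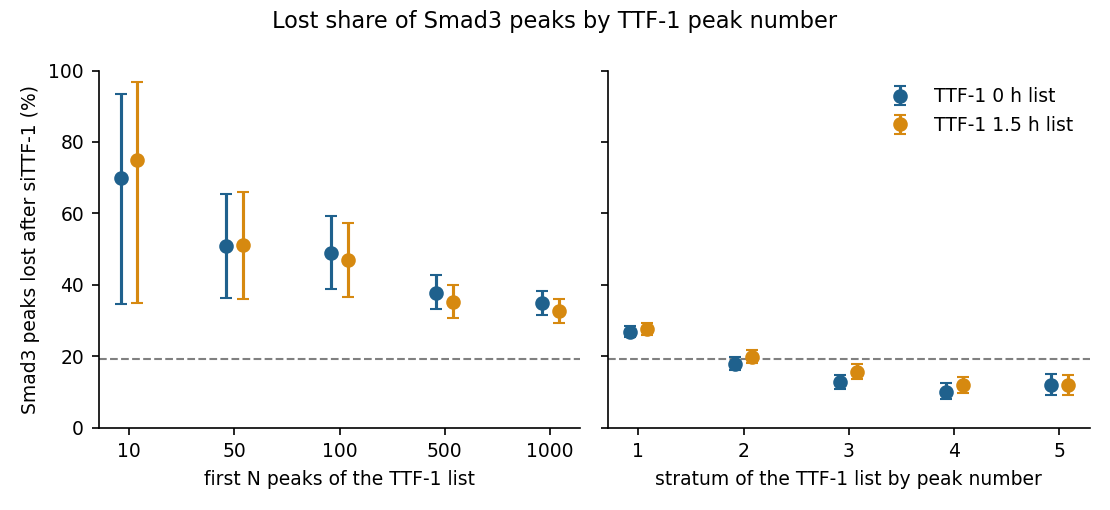
Percent of siControl Smad3 peaks lost after siTTF-1 among those at the first N peaks of each TTF-1 list (left) and in 5 strata of each TTF-1 list by peak number (right). Points are shares with exact 95% intervals, and the dashed line marks the 19.2% lost of all siControl Smad3 peaks. At the first 10 peaks the share is 70.0% (7 of 10) for 0 h and 75% (6 of 8) for 1.5 h. It falls to 11.9% in stratum 5 of both lists.

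Loss went with a late position in the Smad3 list together with an early position in the TTF-1 list. Of the 282 Smad3 peaks in Smad3 stratum 5 and TTF-1 1.5 h stratum 1, 198 were lost (70.2%, 64.5 to 75.5). With TTF-1 stratum 5 the lost share of Smad3 stratum 5 was 32 of 153 (20.9%, 14.8 to 28.2), and with no TTF-1 at either time it was 66 of 330 (20%, 15.8 to 24.7). At the other end, Smad3 stratum 1 lost 70 of 1078 peaks (6.5%, 5.1 to 8.1) with TTF-1 stratum 1, 1 of 343 with stratum 2 and 1 of 173 with stratum 3. It lost 0 of 78 with stratum 4 and 0 of 44 with stratum 5, which allows shares of up to 4.6% and 8.0%. None of its 31 peaks without TTF-1 was lost, which allows a share of up to 11.2%. Within every Smad3 stratum, TTF-1 stratum 1 had the highest lost share of the 6 TTF-1 classes. The 657 Smad3 peaks with TTF-1 at 0 h only, 81 of them lost, are in none of these classes. The averaged difference between TTF-1 strata 1 and 5 within Smad3 strata was 32.1 points, larger than the 15.8 points without strata. The Smad3 strata come from a library that the choice of members used, so all values by Smad3 stratum only describe the sites. Lost Smad3 peaks in Smad3 stratum 1 had a median TTF-1 1.5 h number of 493.5 (n = 72), against 2882 for the kept ones (n = 1644). In Smad3 stratum 5 the medians were 6207 (n = 527) and 11313 (n = 691).

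**Figure D4:**
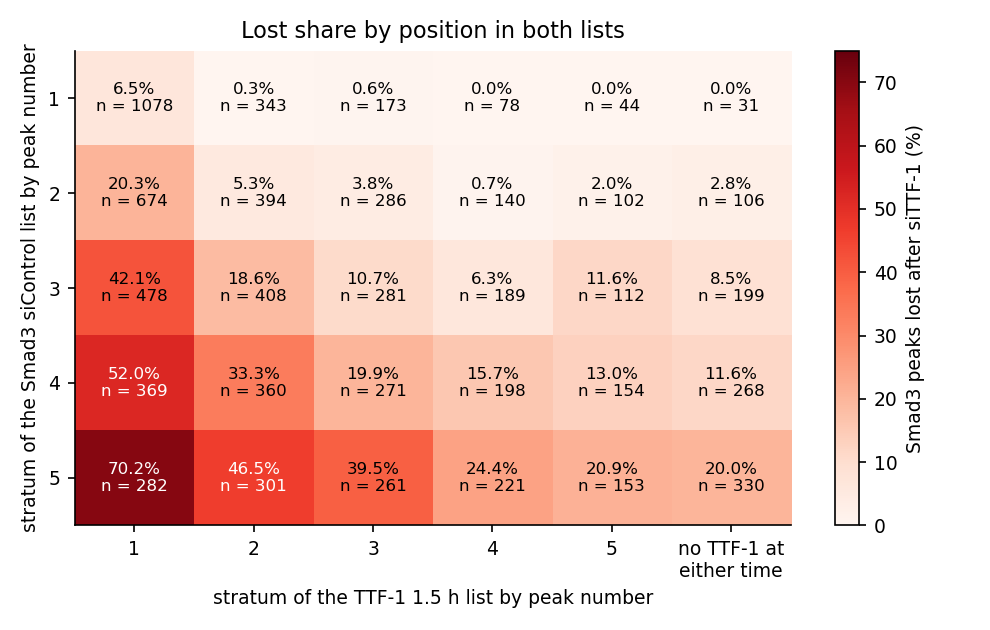
Percent of siControl Smad3 peaks lost after siTTF-1, by stratum of the Smad3 siControl list (rows) and of the TTF-1 1.5 h list (columns). A last column holds peaks without TTF-1 at either time, and n is the number of Smad3 peaks in each cell. Peaks with TTF-1 at 0 h only (n = 657) are in no cell. The share rises towards the lower left, from 0% to 70.2%. The Smad3 strata come from a library that the choice of members used.

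Relative to their TTF-1 peaks, lost Smad3 peaks were narrower than kept ones. The TTF-1 1.5 h peak at a lost site had a median width of 799 bp (upper quartile 1099, n = 1520) and at a kept site of 749 bp (upper quartile 999, n = 5830). A lost Smad3 peak was a median of 0.69 times as wide as its TTF-1 1.5 h peak, and a kept one 0.93 times. Lost peaks lay wholly inside their TTF-1 1.5 h peak in 1305 of 1520 cases (85.9%, 84.0 to 87.6), kept peaks in 57.0% (55.8 to 58.3) and all siControl peaks in 63.0%. The median distance between the Smad3 centre and the TTF-1 1.5 h centre was 50 bp for lost and for kept peaks. In Smad3 stratum 1, where lost peaks had a median width of 699 bp and kept peaks of 849 bp, the TTF-1 1.5 h peaks were 1049 bp wide at lost and 849 bp at kept sites. Both gaps were smaller in strata 2 to 5 than in stratum 1. In stratum 4 the Smad3 medians were both 499 bp, with TTF-1 medians of 799 bp at lost and 649 bp at kept sites. In stratum 5 they were 449 and 499 bp, with TTF-1 medians of 699 and 599 bp. The Smad3 widths come from the library that defined the members, so the ratio and the share lying inside are given as descriptions.

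**Figure D5:**
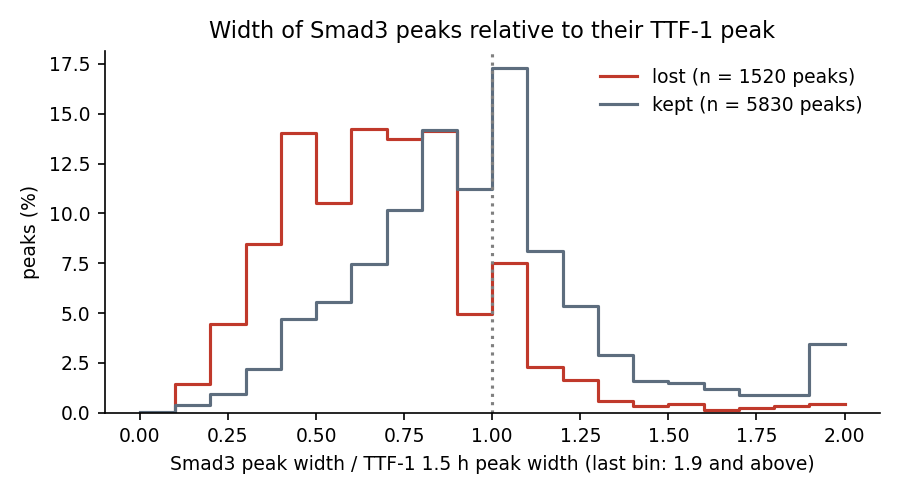
Distribution of the Smad3 siControl peak width divided by the width of the overlapping TTF-1 1.5 h peak, in bins of 0.1, for lost and kept peaks; the dotted line marks equal widths, and ratios of 1.9 and above share the last bin. Lost peaks lie mostly below 1, with a median of 0.69 against 0.93 for kept peaks.

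Each Smad3 peak was counted only at the overlapping TTF-1 peak of lowest number, so other TTF-1 peaks under it were left out. Counted so, most TTF-1 peaks with Smad3 held a single Smad3 peak, and few could hold both a lost and a kept one. The 7350 siControl Smad3 peaks with TTF-1 at 1.5 h lay at 7238 TTF-1 peaks. The 1520 lost peaks with TTF-1 at 1.5 h lay at 1501 TTF-1 peaks. Of these, 26 TTF-1 peaks also held a kept Smad3 peak, and 19 held at least 2 lost ones. On chromosome 9, for example, lost peaks 3645 (126497051 to 126497649) and 5023 (126497701 to 126498299) shared TTF-1 1.5 h number 2919. Such peaks are not independent of each other.

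Smad3 peaks of A549 cells, called at a looser limit, were rare at lost sites. An A549 peak overlapped 19 of the 1718 lost peaks (1.1%, 0.67 to 1.7), against 14.5% (13.7 to 15.4) of kept peaks and 11.9% of all siControl peaks. The difference from kept peaks was -13.4 points (Newcombe 95% interval -14.3 to -12.4), and -10.1 points within strata of the Smad3 number. The direction was the same at Smad3 peaks with and without TTF-1. At Smad3 peaks without TTF-1, an A549 peak was present at 0 of 117 lost peaks, which allows a share of up to 3.1%, and at 16.5% (14.0 to 19.3) of the 817 kept peaks. At Smad3 peaks in TTF-1 1.5 h stratum 1 the shares were 7 of 798 lost peaks (0.88%, 0.35 to 1.8) and 13.5% (12.1 to 15.03) of kept peaks. The first 5 lost peaks with A549 Smad3 lay on chromosome 14 (67728101 to 67728899), chromosome 10 (73600201 to 73601299), chromosome 12 (94252351 to 94253149), chromosome 9 (73566701 to 73567499) and chromosome 7 (94887801 to 94888899). Each of the 5 also carried TTF-1 at both times, and the one on chromosome 14 stood at TTF-1 0 h number 95. The median A549 number was 1094 at lost and 1080 at kept sites.

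Smad4 siTTF-1 peaks overlapped 6 lost peaks (0.35%, 0.13 to 0.76), against 12.4% of kept peaks and 10.1% of all siControl peaks. The Smad4 list comes from the siTTF-1 condition that also defined the loss, so this share is not independent of the rule. The 6 were peaks 3529 on chromosome 3 (63313901 to 63315399), 4049 on chromosome 9 (8354951 to 8355649), 6151 on chromosome 6 (91530401 to 91531099), 6415 on chromosome 18 (19093551 to 19094749), 8034 on chromosome 8 (23452201 to 23452749) and 8645 on chromosome 1 (228388401 to 228388999). Peak 4049 had no TTF-1 peak at either time, and the other 5 had both. Peaks 6151 and 4049 lay 401 and 451 bp from a siTTF-1 Smad3 peak. Peak 8034 was the only lost peak with both Smad4 and A549 Smad3. The Smad4 siControl list holds 1 peak, which lay at a kept site, so Smad4 at lost sites in siControl cells cannot be read from it. In all, 1483 lost peaks (86.3%, 84.6 to 87.9) carried TTF-1 at both times and neither of the other Smad peaks. This held for 62.0% (60.8 to 63.1) of kept peaks and 66.6% of all siControl peaks. Because the Smad4 list enters this share, it is not independent of the rule either.

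The 117 lost peaks without TTF-1 at either time lay near other Smad3 peaks more often than the other lost peaks did. Their median Smad3 number was 7509 and their median width 449 bp, and 23.1% (15.8 to 31.8) had a TTF-1 peak of either time within 1000 bp. Another siControl Smad3 peak lay within 500 bp of 23 of them (19.7%, 12.9 to 28.0), against 7.0% (5.8 to 8.4) of the 1601 lost peaks with TTF-1 and 8.1% (6.3 to 10.2) of the 817 kept peaks without TTF-1. The 5 of lowest number were 1800 on chromosome 9 (32959301 to 32959949), 2517 on chromosome 5 (43074701 to 43075549), 2728 on chromosome 17 (67139101 to 67139749), 4030 on chromosome 14 (95669701 to 95669999) and peak 4049 named above. Peak 1800 stood alone, with the nearest siTTF-1 Smad3 peak 131201 bp away. Peak 2728 lay 101 bp from a kept siControl peak and 201 bp from a siTTF-1 peak. Distances between siControl Smad3 peaks come from the list that the choice of members used, so they only describe the sites. The 4 lost peaks of the chromosome 5 block described below count as neighbours of each other, so the 23 peaks are not independent.

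TTF-1 was absent at both times from 3 of the 5 widest lost peaks, against 6.8% of all lost and 10.4% of all siControl peaks. Kept peaks of like width were not counted, and width comes from the library that the choice of members used. These 5 peaks are therefore only described. On chromosome 17 a peak of 2149 bp (76931301 to 76933449) lay 301 bp from a siTTF-1 peak, with a kept peak 151 bp and another lost peak 51 bp away. On chromosome 12 a peak of 1899 bp (12767651 to 12769549) began 151 bp after a kept peak of 5999 bp (12761501 to 12767499), within which the siTTF-1 list held a peak of 449 bp (12763601 to 12764049) in the window drawn. On chromosome 5 the peak of 1799 bp (43076301 to 43078099) was the last of 4 lost peaks in a row from 43073251, spaced 151 bp apart. This block spanned 4849 bp with no TTF-1 peak at either time, and the nearest siTTF-1 Smad3 peak was 43751 bp away. The other 2 of the 5 widest, peak 472 on chromosome 12 and a peak of 1749 bp on chromosome 8 (127937801 to 127939549), had TTF-1 at both times.

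Lost sites were spread over the genome. The lost share ran from 14.8% on chromosome 22 (17 of 115, 8.9 to 22.6) to 23.7% on X (51 of 215, 18.2 to 30.0), and these 2 intervals overlap. Those of chromosome 5 (89 of 574, 15.5%, 12.6 to 18.7) and chromosome 6 (142 of 626, 22.7%, 19.5 to 26.2) do not. Of the runs of lost peaks in siControl order, 996 held a single peak, 227 held 2, 68 held 3, 12 held 4, 2 held 5 and 1 held 6. The run of 6 lay on chromosome 1 (67888551 to 68417949). TTF-1 was present at all 6 peaks at both times, beside 87.7% of all lost and 80.3% of all siControl peaks. The siTTF-1 list had 5 Smad3 peaks within the same span, none at those sites. The runs of 5 lay on chromosome 3 (180844701 to 181294549) and chromosome 1 (74637601 to 77183799). The latter included lost peak 3572 at 75317951 to 75318649, under TTF-1 0 h number 27. Of the runs of 4, the shortest were the block on chromosome 5 and one of 30799 bp on chromosome 9 (126467501 to 126498299). The latter had TTF-1 at all 4 peaks at both times, beside the same shares of 87.7% and 80.3%. It had no siTTF-1 Smad3 peak within its span.

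The 1 Mb window with the most lost peaks was 8000001 to 9000000 on chromosome 10, where 7 of 15 siControl peaks were lost and the siTTF-1 list had 12. It holds the Smad3 peak under TTF-1 0 h number 2. Windows with 6 lost peaks were 43000001 to 44000000 on chromosome 5 (of 11 siControl peaks), 60000001 to 61000000 on chromosome 17 (of 12), 75000001 to 76000000 on chromosome 4 (of 16) and 12000001 to 13000000 on chromosome 12 (of 18). The siTTF-1 list had 12, 10, 16 and 20 Smad3 peaks in the same windows.

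Gained Smad3 peaks, the 6944 of the 14145 siTTF-1 peaks without a siControl peak, lay within 10000 bp of 247 lost peaks (14.4%, 12.8 to 16.1). The same held for 21.2% (20.3 to 22.2) of kept peaks and 19.9% of all siControl peaks. The median distance to the nearest gained peak was 82776 bp from a lost and 49751 bp from a kept peak. Both Smad3 lists that define lost, kept and gained enter these values, so they only describe the sites.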

How the data were processed

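Peak lists of 7 ChIP-seq libraries were analysed. The 3 input libraries were not analysed here. Per the labels, peaks were called by the authors on single libraries at the limits given above. Positions are on hg18, as named in the submitters' processing notes, and peak edges fall on steps of 50 bp. No aligner or peak caller is given in the sources used here. The deposited score was 1000 for every peak and was not used. The peak number, a separate column, served as an order. In the A549 list 1 track line was skipped.

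Overlap means at least 1 bp, counted in siControl Smad3 peaks. Where several TTF-1 peaks overlapped, the lowest number was used. Shares have exact Clopper-Pearson 95% intervals and differences Newcombe intervals, which cover counting error only, since peaks are not replicates. Overlap counts equalled those of bedtools 2.31.1 in 9 of 9 comparisons on shifted lists, and the code was tested on simulated data. Analyses used Python 3.11.15, NumPy 2.4.6, pandas 2.3.3, SciPy 1.17.1 and matplotlib 3.10.9.

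Named peaks are the 10 lost peaks of lowest number, the 5 widest, all with Smad4, the first 5 with A549 Smad3, without TTF-1 and by TTF-1 1.5 h number, the longest runs and the densest windows. The peaks at the first 10 TTF-1 0 h peaks, the shared TTF-1 peak and the drawn sites were added after their values were seen. The members and these rules were chosen with earlier results of these data known, and ordering peaks by their number was decided after seeing the data. Neighbouring genes and motifs, which had been planned, were not analysed here, since they need the sequence and gene models of hg18.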

Additional observations from a re-analysis of the deposited data

How the results depend on the processing

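No paired analysis was possible because each group has 1 library. The cause of the changes below was not tested. Moved values are given for 50% coverage of the Smad3 peak, centres within 200 bp, edges within 500 bp and the wider 50% of the overlapped list, in this order where all moved. The lost share of 19.2% became 21.2%, 25.3%, 18.2% and 47.4%, and the TTF-1 1.5 h share of kept peaks became 77.9%, 71.9%, 81.7% and 54.3%. The TTF-1 1.5 h share of lost peaks was 76.6% by centres and 66.9% with the wider 50%. The TTF-1 0 h share was 79.0% by centres, 93.8% by edges and 76.5% with the wider 50%. The Smad4 share was 0% with 50% coverage and 0.058% with the wider 50%, and the A549 share 0.58% with the wider 50%. Leaving out X left these 6 values within their intervals.

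Other settings were chosen after seeing the data. The TTF-1 1.5 h excess of lost over kept peaks was 10.1 points with 50% coverage, 4.7 by centres, 12.6 with the wider 50%, 16.3 within strata of the Smad3 number and 11.3 with lists shortened to 8941 peaks by number. It reversed to -2.3 points when centres also defined the loss and to -9.0 points with lists shortened by width. The A549 difference was -11.2 points with 50% coverage, -10.7 by centres, -7.9 with the wider 50%, -10.1 within strata and -8.0 when centres also defined the loss. It was -15.4 and -14.5 with the siTTF-1 list shortened by width and by number. The A549 list holds 2535 peaks and was not shortened. The lost-share difference between TTF-1 strata 1 and 5 was 10.5 points ordered by width, and 32.1 and 19.98 points within strata of Smad3 number and width; in the other 7 settings it stayed within its interval. The motif and gene alternatives were not run. Without read counts, a missing peak cannot be told from a weak one.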
